A study of Mus musculus with 8 samples.

Results

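The genes described here encode surface proteins of the red cell that carry blood group antigens or sit beside them: the glycophorin Gypc, the Rh proteins Rhag and Rhd, the Kell protein Kel and its partner Xk, the adhesion molecule Icam4, the Scianna protein Ermap, and Cd47 and Cd24a. These 9 genes were chosen by name, as members of one family of functions, and every probe set annotated to one of them alone was used. The choice was made with earlier results of these data known, so the counts below only describe these genes. They had 15 of the 22626 probe sets that were not array controls, and were 9 of the 12394 genes with a probe set of their own. The tissue was the yolk sac of FVB/N mice at embryonic day 9.5, with no other allele or agent named in the labels. Primitive erythroid precursors, from which the first red cells of the embryo form, and epithelial cells were both cut by laser from the same frozen sections in 4 pairs, with 4 arrays for each cell type. Each pair pooled 2 to 4 yolk sacs from 2 litters. An erythroid cell took 2 to 3 laser pulses and an epithelial cell 1, from sections of 8 micrometres, so either capture could hold parts of neighbouring cells.

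In the red cell membrane, the Rh polypeptide and the Rh-associated glycoprotein form a complex that passes ammonium and gases. This complex is tied to the anion exchanger and, through ankyrin, to the membrane skeleton. Glycophorin C anchors the skeleton through protein 4.1, and the Kell protease is linked to the Xk protein by a disulphide bond. Several of these proteins appear on red cell precursors well before the cell is mature, and some, such as Cd47 and Cd24a, are also made by many other cells.

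The arrays had median signals of 81.6 to 127 in the unit the authors deposited, an intensity on a linear scale, and 48.7% to 57.7% of probe sets lay above the array's background level, which was 55.1 to 133. To set that level, the 95th percentile was taken over 117 probe sets of odorant receptors and other genes thought silent in yolk sac. Gapdh control probe sets, whose 3' signal exceeds the 5' signal more in shortened RNA, had a 3'/5' ratio of 38.7 to 44.4 in pairs 1 and 2, against 7.0 to 17.4 in pairs 3 and 4, so each of these sets is also given on its own. Of 10 erythroid markers tested, 7 were called, all higher in erythroid captures; of 14 markers of the visceral endoderm epithelium 12 were called, all lower. The labelled cell types thus went with most of their markers, but markers of other cell types were also read, and purity was not measured. All 10 erythroid markers lay above background on at least 1 epithelial array, with Klf1 at 298 to 502 there. By the brightest tested probe set of each gene, Hbb-bh1, Hbb-y and Epor were not called, nor were Afp and Ttr. The globins Hbb-bh1 and Hbb-y were at -0.11 ± 0.07 (SE; limma adjusted p = 0.348) and 0.07 ± 0.07 (0.561). Their mean signals in the epithelial captures were 36732 and 30017, while the highest signals of the 8 arrays were 24645 to 58408. The dimmer globin Hba-x was called higher (1.66 ± 0.16, SE; limma adjusted p = 0.00102), at mean signals of 16702 in the erythroid and 5086 in the epithelial captures. Whether differences between the brightest signals were compressed was not tested. Of 9 markers of mesenchyme, smooth muscle and mesothelium, 8 were tested and 6 were higher in the erythroid captures. Of 5 megakaryocyte markers 3 were tested and Pf4, a platelet chemokine, was higher (2.16 ± 0.34, SE; limma adjusted p = 0.00328). Itga2b (-0.04 ± 0.45, adjusted p = 0.966) and Ppbp (1.70 ± 0.54, 0.0623) were not called, and Gp9 was below background on all 8 arrays. The 5 summed to 4706 to 16627 in the erythroid and 1448 to 2445 in the epithelial captures. Most of this was Pf4, at 4157 to 15006 and 1101 to 2046. Of 7 endothelial markers 4 were tested and the receptor Tek was higher (1.35 ± 0.29, adjusted p = 0.0137), with sums of 787 to 1960 and 436 to 894, and Pecam1 and Tie1 below background on all 8 arrays. Of 8 macrophage and leukocyte markers 5 were tested, 0 were higher and Fcgr3 was lower (-1.23 ± 0.23, adjusted p = 0.00729). These 8 summed to 1385 to 2186 in the erythroid and 1184 to 1466 in the epithelial captures. With captures of this kind, fewer cells of a type and less RNA per cell cannot be told apart.

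Most of the blood group genes were higher in the erythroid captures, and 0 were lower. Of the 15 probe sets, 11 for 8 genes were bright enough to be tested. With limma at an adjusted p under 0.05, 9 of them were higher, against 6.19% of all 11449 probe sets tested, and 0 were lower, against 7.69%. By gene, read from its brightest tested probe set, these were 7 of 8, Ermap, Rhag, Kel, Icam4, Gypc, Cd24a and Rhd, against 6.02% of 7191 genes, and 0 were lower, against 8.87%. On normalised values 5 probe sets had all erythroid above all epithelial arrays, against 5.75% of probe sets, and 0 the reverse, against 7.26%. The median log2 difference, erythroid minus epithelial, was 1.66 over the 11 probe sets and 0.02 over all tested. Cd47 did not pass the test, and Xk was below background on all 8 arrays. Fitted without the pair as a block, 4 of the 11 probe sets passed, those of Ermap, Rhag, Icam4 and Gypc. Without pair 4, the 4 that passed were those of Ermap and Cd24a.

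**Figure D1:**
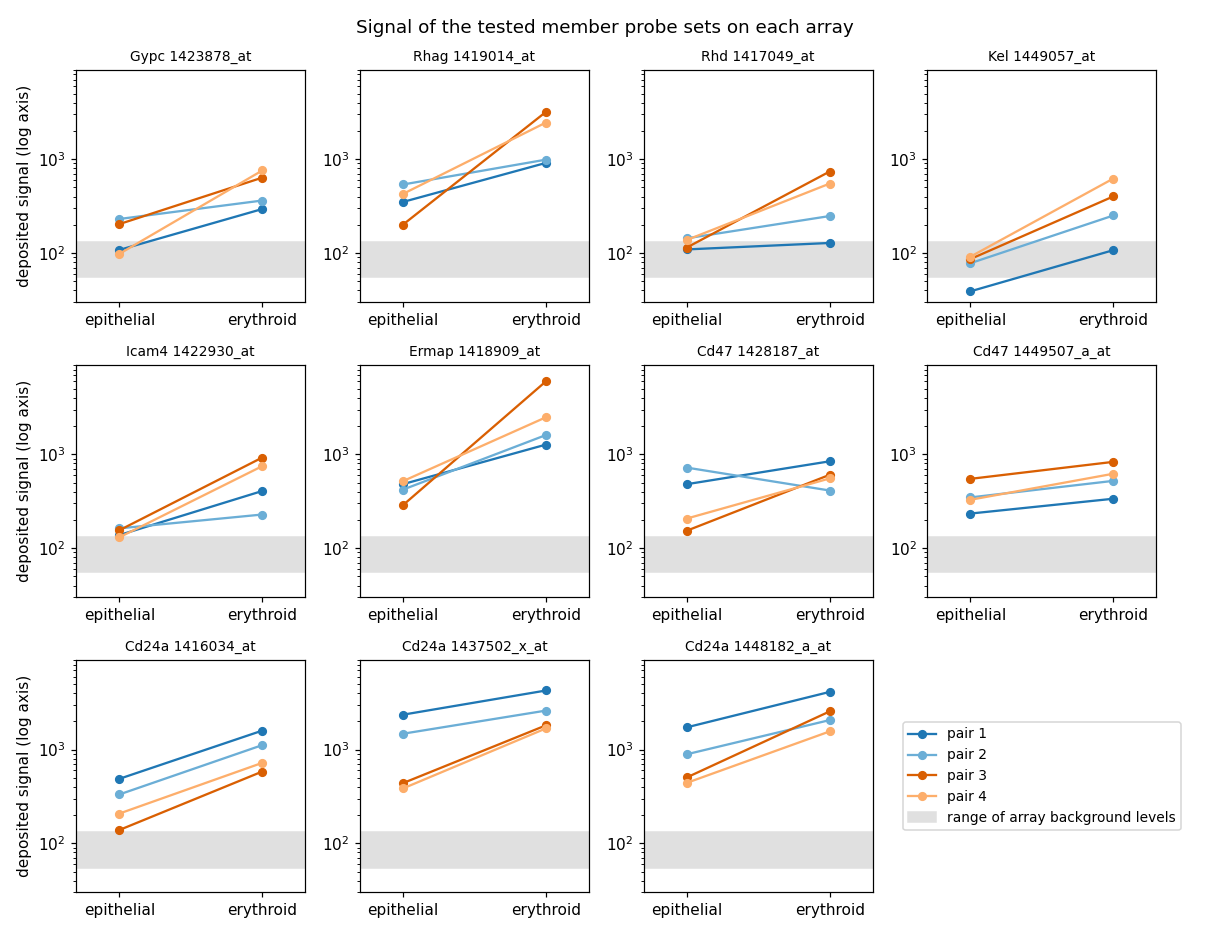
Deposited signal (log axis) of the 11 tested member probe sets on each of the 8 arrays, with a line joining the epithelial and the erythroid capture of each pair and a grey band for the range of the array background levels. Every line rises for Ermap, Rhag, Icam4, Gypc, Kel and Cd24a, while the line of pair 2 falls for Cd47 probe set 1428187_at, and Kel lies in or under the band in the epithelial captures.

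Promoter sequences are shown for the 5 members that passed the test and had an entry in the RefSeq promoter table (GRCm38.p6), since these genes were high together. Of the 9 members 7 had an entry. The 250 bases before the annotated start are printed in the direction of the gene, and capitals mark the words that the red cell factor Gata1 is known to bind, namely AGATAA or AGATAG, and TGATAA or TGATAG, on either strand. The window of Rhag lies at chr17:40810899-40811148 on the plus strand, that of Rhd at chr4:134864286-134864535 on the plus strand, that of Kel at chr6:41704326-41704575 on the minus strand, that of Icam4 at chr9:21029182-21029431 on the plus strand and that of Ermap at chr4:119189996-119190245 on the minus strand.
Rhag: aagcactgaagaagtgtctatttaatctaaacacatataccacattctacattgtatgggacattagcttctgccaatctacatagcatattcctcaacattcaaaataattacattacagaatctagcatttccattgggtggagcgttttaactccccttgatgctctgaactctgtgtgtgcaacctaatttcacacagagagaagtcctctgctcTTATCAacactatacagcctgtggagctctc
Rhd: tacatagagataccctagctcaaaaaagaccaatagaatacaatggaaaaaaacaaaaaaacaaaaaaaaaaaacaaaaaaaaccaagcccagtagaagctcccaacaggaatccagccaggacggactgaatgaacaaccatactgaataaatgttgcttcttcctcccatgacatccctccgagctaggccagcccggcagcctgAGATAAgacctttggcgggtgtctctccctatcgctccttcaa
Kel: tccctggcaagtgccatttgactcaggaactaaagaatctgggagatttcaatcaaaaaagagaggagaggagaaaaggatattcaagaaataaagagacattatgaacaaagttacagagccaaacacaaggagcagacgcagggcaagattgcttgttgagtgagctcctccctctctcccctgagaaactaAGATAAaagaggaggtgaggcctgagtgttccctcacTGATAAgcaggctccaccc
Icam4: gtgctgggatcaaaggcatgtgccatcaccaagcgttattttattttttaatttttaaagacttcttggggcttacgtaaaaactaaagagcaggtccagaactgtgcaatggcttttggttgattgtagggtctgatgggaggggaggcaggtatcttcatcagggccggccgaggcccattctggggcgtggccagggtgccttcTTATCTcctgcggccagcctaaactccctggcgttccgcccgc
Ermap: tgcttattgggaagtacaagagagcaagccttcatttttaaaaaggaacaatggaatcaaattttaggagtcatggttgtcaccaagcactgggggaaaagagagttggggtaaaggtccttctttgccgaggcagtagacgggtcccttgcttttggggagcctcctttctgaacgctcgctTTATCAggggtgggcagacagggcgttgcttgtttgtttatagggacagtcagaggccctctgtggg

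All 5 windows held at least 1 such word, against 26.5% of the 32851 windows of this length in the table. The word began 31 bases upstream of the start in Rhag, 43 in Rhd, 43 in Icam4 and 67 in Ermap, and Kel had 2, at 56 and 19 bases. Among all windows 6.40% held 2 or more. The windows of Xk, which was too dim to be tested, and of Cd47, which was not called, held 0. Gypc and Cd24a, both called higher, had no entry, so their windows were not examined. A second pattern, CCNCNCCC on either strand, which takes in the sites of Klf1 and other Kruppel-like factors, was found in the windows of Icam4 and Xk and in 45.9% of all windows. In Xk most matches overlapped in a run of a single base. These matches describe the letters of the windows, and binding was not measured.

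**Figure D2:**
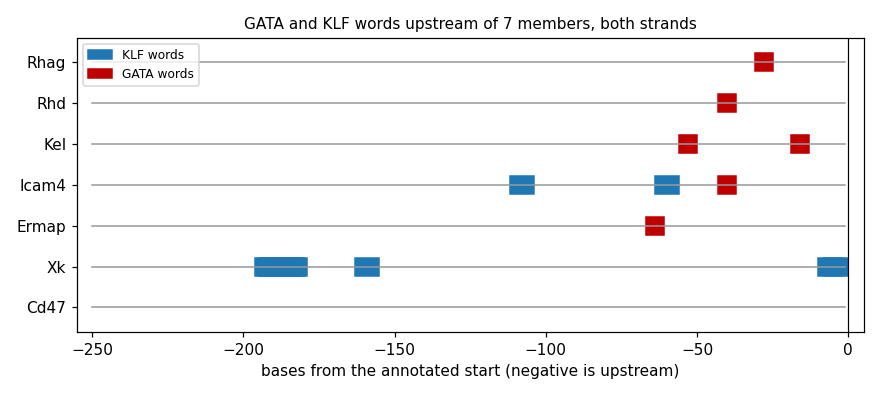
Positions of GATA words (red) and of CCNCNCCC matches, marked KLF (blue), in the 250 bases before the annotated start of the 7 members with a promoter entry; the axis is the distance in bases from the start. The 6 GATA words lie within 67 bases of the start and all belong to Rhag, Rhd, Kel, Icam4 and Ermap.

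Rhag, the channel-like glycoprotein without which the Rh complex does not reach the cell surface, had the second largest difference of the members. Its signal (probe set 1419014_at) was 914, 989, 3196 and 2461 in the erythroid captures of pairs 1 to 4 and 350, 537, 201 and 427 in the epithelial captures. The groups did not overlap, and the erythroid captures of pairs 3 and 4 stood well above those of pairs 1 and 2. The log2 difference was 2.16 ± 0.41 (SE, n = 4 pairs), a 4.48-fold difference with a 95% interval of 2.38 to 8.43 (limma adjusted p = 0.00726). It went from 1.08 in pairs 1 and 2 to 3.25 in pairs 3 and 4, and this interaction passed its test (adjusted p = 0.0153), as for 1.84% of all probe sets. The call of the difference itself ended without pair 4 (adjusted p = 0.0540) and without the variance trend (0.0659), and that of the interaction without the variance trend (0.387), without pair 2 (0.0786) and without pair 3 (0.0876). With a pair left out, 1 set is a single pair and the spread comes from the other set, so such an interaction value says little in either direction.

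Rhd, the Rh polypeptide of the mouse, was dimmer and less certain. Its signal (1417049_at) was 128, 248, 739 and 550 in the erythroid captures and 109, 143, 114 and 138 in the epithelial captures, all above background. The erythroid capture of pair 1 lay within the range of the epithelial ones, and after normalisation pair 1 had a difference of -0.035. The log2 difference over the 4 pairs was 1.27 ± 0.38 (SE), higher in 3 of 4 pairs, with an adjusted p of 0.0486 in limma. The call ended without pair 2 (adjusted p = 0.0791), without pair 3 (0.205), without pair 4 (0.210), with no filter on dim probe sets (0.0913), with a smaller offset (0.0516), without the pair block (0.171) and without the variance trend (0.114). Pairs 1 and 2 had a difference of 0.51, pairs 3 and 4 one of 2.02 (interaction adjusted p = 0.270). The homologues Rhbg and Rhcg, ammonium transporters of epithelia, were below background on all 8 arrays.

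Ermap, an erythroid membrane protein of the butyrophilin kind that carries the Scianna antigens, differed most. The signal of 1418909_at was 1271, 1608, 6011 and 2486 in the erythroid captures and 481, 421, 288 and 519 in the epithelial captures. The groups did not overlap, and pair 3 held both the highest erythroid and the lowest epithelial value. The log2 difference was 2.49 ± 0.40 (SE), 5.61-fold with an interval of 3.06 to 10.3 (limma adjusted p = 0.00339), and it ranked 9 among the 11449 probe sets tested. Ermap passed under all 13 alternative settings over all or 3 of the pairs, with values from 1.89 without pair 3 to 2.84 without pair 1. Pairs 1 and 2 gave 1.63, pairs 3 and 4 gave 3.35 (interaction adjusted p = 0.0993). With pair 4 left out the gap was 2.79, and it passed (2.85e-07) with pair 3 alone in its set, so that pair's own spread is not in the test.

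Icam4, the Landsteiner-Wiener protein, binds integrins and takes part in contacts between red cell precursors and macrophages. Its signal (1422930_at) was 407, 228, 926 and 750 in the erythroid captures and 138, 163, 155 and 130.5 in the epithelial captures. The epithelial values lay close together, and the erythroid capture of pair 2 was nearest to them. The log2 difference was 1.66 ± 0.30 (SE), 3.16-fold with an interval of 1.99 to 5.03 (limma adjusted p = 0.00606), and higher in 4 of 4 pairs. The call ended without pair 4 (adjusted p = 0.0541). Its relative Icam1, an adhesion molecule of epithelia and endothelia that stands beside Icam4 in the genome annotation, went the other way: Icam1 was lower by a log2 difference of -1.06 ± 0.24 (adjusted p = 0.0156) at mean signals of 227 and 461. The call of Icam1 ended without pair 4 (adjusted p = 0.113). Icam5, the other neighbour, was below background on all 8 arrays, and Icam2 was at 0.92 ± 0.29 (adjusted p = 0.0577).

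Gypc, the glycophorin that binds protein 4.1, gave signals of 294, 363, 636 and 758 on 1423878_at in the erythroid captures and of 108, 230.5, 203 and 97.9 in the epithelial captures. The groups did not overlap, and pairs 3 and 4 were again the higher erythroid values. The log2 difference was 1.51 ± 0.29 (SE), 2.85-fold with an interval of 1.83 to 4.42 (limma adjusted p = 0.00717), with 1.06 in pairs 1 and 2 against 1.96 in pairs 3 and 4. The call ended without pair 4, at a value of 1.17 (adjusted p = 0.0582).

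Kel, a zinc protease that cleaves endothelins and carries the Kell antigens, was the dimmest member called. Its signal on 1449057_at was 107, 251, 401 and 622 in the erythroid captures, above background on 4 of 4 arrays, and 39.0, 77.9, 86.2 and 91.4 in the epithelial captures, above background on 1 of 4. The deposited signals did not overlap, but after normalisation the erythroid capture of pair 1 lay within the epithelial range. Kel reached the array median on 3 erythroid arrays and 1 epithelial array, so it passed the filter mainly through the group in which it was high. The log2 difference was 1.78 ± 0.34 (SE), higher in 4 of 4 pairs (limma adjusted p = 0.00712), and with most epithelial values below background its size is uncertain. Pairs 1 and 2 gave 1.53, pairs 3 and 4 gave 2.03. The call ended without pair 4 (adjusted p = 0.0842) and without the pair block (0.0835). The protease Ece1 of the same family was at 0.73 ± 0.32 (adjusted p = 0.155).

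Xk, the membrane protein bound to Kel, had 2 probe sets, both below background on all 8 arrays and neither tested. Probe set 1453866_a_at gave 19.7, 29.8, 29.1 and 86.0 in the erythroid captures and 6.42, 3.88, 5.49 and 8.71 in the epithelial captures. These values did not overlap, but none was above the level of silent genes. Probe set 1450189_at lay between 2.06 and 49.1. No fold is given, and expression of Xk was not detectable with these probe sets.

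**Figure D3:**
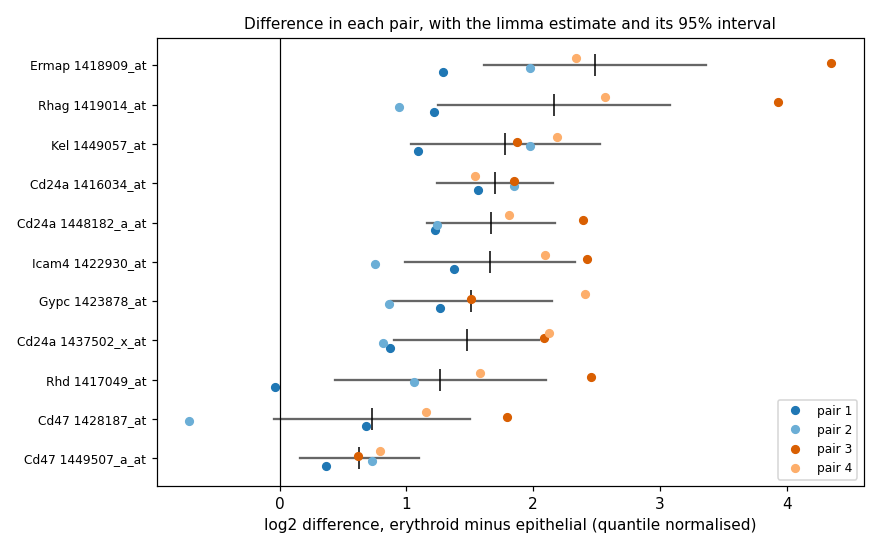
Log2 difference, erythroid minus epithelial, of each tested member probe set in pairs 1 to 4 (points, after quantile normalisation), with the limma estimate (vertical tick) and its 95% interval (line). Ermap has the highest estimate at 2.49; in pair 3 it reached 4.35, and the points of pair 1 for Rhd and of pair 2 for Cd47 probe set 1428187_at lie below 0.

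Cd24a, a small mucin-like protein held by a lipid anchor and known as the heat-stable antigen of developing blood cells, is also made by epithelia. All 3 of its probe sets passed the test. On 1416034_at the signal was 1591, 1115, 583 and 721 in the erythroid captures and 487, 332, 139 and 208 in the epithelial captures. On this probe set the groups did not overlap, and the difference was nearly the same in every pair, at 1.56, 1.85, 1.85 and 1.54. The log2 difference was 1.70 ± 0.21 (SE), 3.25-fold with an interval of 2.37 to 4.46 (limma adjusted p = 0.00133).

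The other 2 probe sets of Cd24a were brighter, and on both the epithelial captures of pair 1 reached into the erythroid range. On 1437502_x_at, a kind of probe set that can pick up related transcripts, the signal was 4258, 2601, 1811 and 1680.0 in the erythroid captures and 2352, 1474, 439 and 385 in the epithelial captures. It was higher by 1.47 ± 0.26 (SE; adjusted p = 0.00508), with 0.84 in pairs 1 and 2 against 2.11 in pairs 3 and 4 (interaction adjusted p = 0.0591, and 0.0432 without pair 4, with pair 3 alone in its set). On 1448182_a_at the erythroid signals were 4114, 2060, 2549 and 1560, and the epithelial signals 1723, 890, 503 and 441. It was higher by 1.67 ± 0.23 (SE; adjusted p = 0.00204). The calls of all 3 probe sets held when any 1 pair was left out, at an adjusted p of at most 0.0366, and ended without the pair block (0.0560 to 0.179). That of 1437502_x_at also ended without the variance trend (0.0517).

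The pairs differed in Cd24a in another way than in the red cell proteins. In both cell types and on all 3 probe sets, pair 1 had the highest Cd24a signal, and pairs 3 and 4 held the lowest epithelial signals. For Rhag, Rhd, Kel, Icam4, Gypc and Ermap the 2 highest erythroid signals were those of pairs 3 and 4. The share of this that goes with the 3' to 5' ratios of the arrays, which part the pairs in the same way, was not tested.

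Cd47, the signal of self that restrains macrophages and a companion of the Rh complex in the red cell membrane, did not pass the test. On 1449507_a_at the signal was 337, 522, 832 and 622 in the erythroid captures and 234, 347.5, 548 and 328 in the epithelial captures. The groups overlapped, though each pair was higher in the erythroid capture, and the log2 difference was 0.63 ± 0.21 (SE), with an interval of 0.16 to 1.10 (limma adjusted p = 0.0731). On 1428187_at the signals were 843, 412, 605 and 554 against 481, 723, 153 and 207. Pair 2 was lower in the erythroid capture and the other 3 pairs higher, with a log2 difference of 0.73 ± 0.35 (adjusted p = 0.194), and without pair 2 it was called at 1.23 (adjusted p = 0.0248). The interaction gap was 1.49 with all pairs (adjusted p = 0.156). It passed without pair 1 (2.19, 0.0282) or pair 4 (1.76, 0.0261), each time with 1 set reduced to a single pair.

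The other 2 probe sets of Cd47 were too dim to be tested. On 1419554_at the signal was 32 to 121 in the erythroid and 31.9 to 147 in the epithelial captures, above background on 3 and 2 arrays. On 1459908_at it was below background on all 8. Sirpa, the receptor of Cd47 on macrophages, was at -0.20 ± 0.35 (adjusted p = 0.743).

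The members' differences were larger in pairs 3 and 4 for 10 of the 11 probe sets tested, beside 63.6% of all, the exception being 1416034_at of Cd24a at 1.71 and 1.70. Among the 9 called, 8 were larger there, beside 84.6% of all probe sets called higher. At an unadjusted p under 0.05 the interaction was reached by 7 of the 11, beside 13.4% of all probe sets, and after adjustment by Rhag alone, beside 1.84%. Fitted on pairs 1 and 2 alone, with 1 residual degree of freedom, Ermap, Rhag and the 3 probe sets of Cd24a passed. Gypc (0.98, adjusted p = 0.10), Icam4 (0.98, 0.118), Kel (1.44, 0.193) and Rhd (0.46, 0.686) did not. On pairs 3 and 4 alone, again with 1 residual degree of freedom, Cd47 passed on 1428187_at (1.54, adjusted p = 0.000757). All other tested member probe sets passed there too, except 1449507_a_at of Cd47 (0.70, adjusted p = 0.108). Erythroid markers moved with the sets in the same way, with a median difference of 1.10 in pairs 1 and 2 against 2.74 in pairs 3 and 4, and mesenchymal markers too, at 0.36 and 2.46. Markers of the visceral endoderm epithelium also lay further from 0 in pairs 3 and 4, on the lower side, with medians of -1.03 and -1.89. The 3 megakaryocyte markers tested had medians of 0.37 and 3.02. The part of cell mixture and of RNA quality in the members' gap was not tested.

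**Figure D4:**
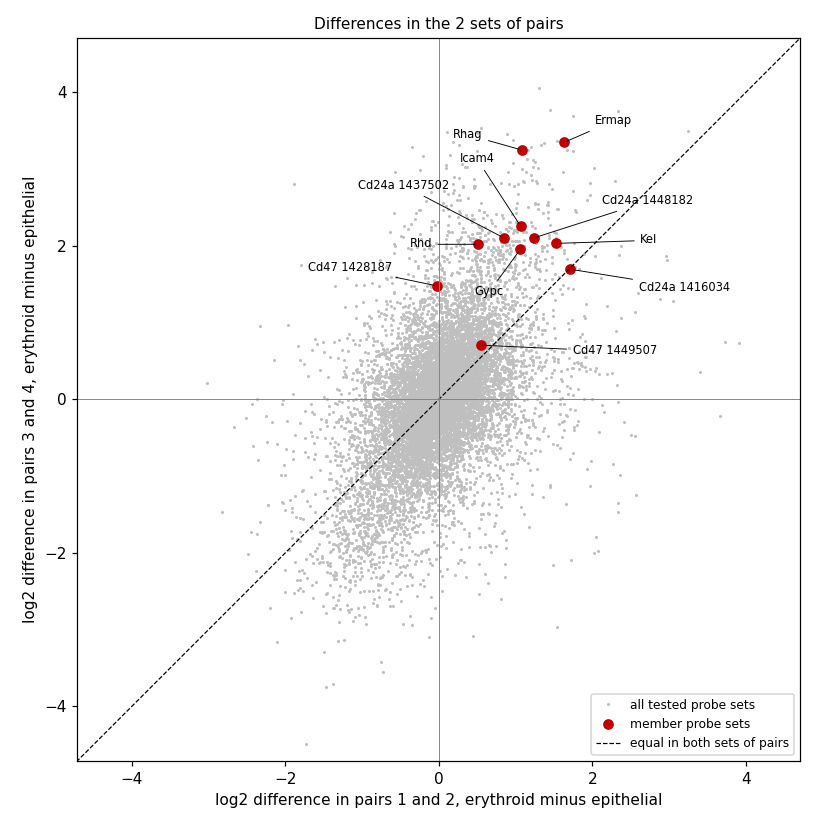
Log2 difference, erythroid minus epithelial, in pairs 3 and 4 against that in pairs 1 and 2 for all 11449 probe sets tested (grey) and the 11 of the members (red), with a dashed line of equality. Of the members, Ermap and Rhag lie highest, at 3.35 and 3.25 on the vertical axis, and Cd24a 1416034 lies next to the dashed line.

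Within a pair, the epithelial signal of the red cell proteins ranged from 4.79% of the erythroid one (Ermap, pair 3) to 85.3% (Rhd, pair 1). For Rhd in pair 1 the epithelial signal was 109, beside a background level of 88.0. The share was lower in pairs 3 and 4 than in pairs 1 and 2. In pairs 1 to 4, the epithelial signal as a percent of the erythroid signal was 37.9%, 26.2%, 4.79% and 20.9% for Ermap. For Rhag it was 38.3%, 54.3%, 6.28% and 17.3%. The erythroid factor Gata1 gave 36.9%, 44.7%, 10.2% and 17.7%, and the anion exchanger Slc4a1 35.3%, 39.2%, 7.34% and 17.1%. Klf1 gave 23.5%, 35.1%, 12.6% and 10.9%. The lowest share was in pair 3 for Gata1, Slc4a1, Ermap, Rhag, Rhd and Icam4, and in pair 4 for Klf1, Gypc and Kel. Cd24a on 1416034_at stayed between 23.8% and 30.6%, but on 1437502_x_at it was 55.2%, 56.7%, 24.2% and 22.9% in pairs 1 to 4. On 1448182_a_at Cd24a was at 41.9%, 43.2%, 19.8% and 28.3%. Cd47 on 1449507_a_at stayed between 52.8% and 69.5%, but on 1428187_at it was 57.0%, 175%, 25.3% and 37.3%. These are ratios of deposited signals with no background taken off, and the part of red cell material in the epithelial captures was not tested.

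Over the 8 arrays, profiles were compared by probe set. Rhag, Rhd, Kel, Icam4, Gypc and Ermap correlated with each other at Pearson r of 0.796 to 0.968 across the arrays. With 1437502_x_at of Cd24a these 6 genes correlated at 0.104 to 0.530, with 1416034_at at 0.232 to 0.615 and with 1448182_a_at at 0.264 to 0.703. The 2 tested probe sets of Cd47 went different ways and correlated with each other at -0.0896. Probe set 1428187_at correlated at 0.0232 to 0.554 with the 6 genes and at 0.744 to 0.892 with the 3 of Cd24a, and 1449507_a_at at 0.63 to 0.83 with the 6 genes and at 0.0234 to 0.219 with those of Cd24a. The profile of Cd47 thus depends on the probe set. The arrays share pairs, cell types and one normalisation, so these values are a description. Among all genes tested, each by its brightest tested probe set, the 3 profiles most like that of each called member were listed, closest first. For Ermap they were Bpgm, the enzyme that makes the red cell's bisphosphoglycerate (r = 0.985 over 8 arrays), the red cell factor Tal1 (0.984) and Acp1 (0.983). For Rhag they were Slc43a3 (0.990), Lcmt1 (0.980) and Abcb10, a mitochondrial transporter of red cell precursors (0.979). For Kel they were Tmem14c, a mitochondrial protein of the heme pathway (0.983), Trappc1 (0.970) and Mgst3 (0.969). Rhd had Marchf2 (0.976), Arrb1 (0.959) and Tspo (0.959), and Gypc had Angptl6 (0.965), Mgst3 (0.961) and Anp32b (0.956). Icam4 had Marchf5 (0.982), Rap1a (0.976) and Cdca4 (0.974), and Cd24a had Zfp932 (0.994), Tvp23a (0.994) and Idi1 (0.991). Of these genes Lcmt1, Trappc1, Arrb1 and Tvp23a were not called between the captures (limma adjusted p = 0.0759 to 0.426).

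Other blood group carriers, partners of the Rh complex, and relatives or ligands of such proteins were mixed. Of 64 such genes 50 had a probe set of their own here and 27 were tested. Of these 4 were higher, beside 6.02% of all 7191 genes tested, 5 were lower, beside 8.87%, and 18 were not called. Their median log2 difference was 0.45, beside 0.02 over all probe sets tested. Those higher were the band 3 protein Slc4a1 at 2.32 ± 0.34 (SE), its partner Epb42 at 2.46 ± 0.41, the prion protein Prnp at 1.79 ± 0.31 and the exporter Abcc1 at 1.84 ± 0.44. Prnp passed on 1 of its 2 tested probe sets. Abcc1 lay above background on 1 of 4 epithelial arrays, so its size is uncertain, and its call ended when any 1 pair of the 4 except pair 2 was left out (adjusted p = 0.0506 to 0.0752) or without the pair block (0.0546). Ank1, which ties the Rh complex to the skeleton, was at 0.96 ± 0.49 (adjusted p = 0.221). Its difference was -0.24 in pairs 1 and 2 against 2.16 in pairs 3 and 4, and 1 of its 2 tested probe sets was called higher.

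Those lower were an adhesion molecule, a tetraspanin, a scaffold and a pair of glycan-building enzymes. Cd151, a tetraspanin of basal cell contacts, was at -0.91 ± 0.15 (adjusted p = 0.00355), on 2 of its 5 tested probe sets. The globoside synthase B3galnt1 was at -1.06 ± 0.23, Gcnt2, which branches the chains of the I antigen, at -0.83 ± 0.24, the membrane scaffold Mpp1 at -1.05 ± 0.24 and Icam1 at -1.06. All 5 were lower in 4 of 4 pairs. The call of B3galnt1 ended without pair 3 (adjusted p = 0.0585), that of Mpp1 without pair 3 (0.0781) or pair 4 (0.109), and that of Gcnt2 when any 1 pair was left out (0.0543 to 0.230) or with no filter on dim probe sets (0.0786). Without the pair block, Cd151 (0.0625), Mpp1 (0.176) and Gcnt2 (0.111) did not pass. Without the variance trend, Slc4a1, Abcc1 and Icam1 passed, and the other 6 of the 9 lay between 0.0504 and 0.0962.

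**Figure D5:**
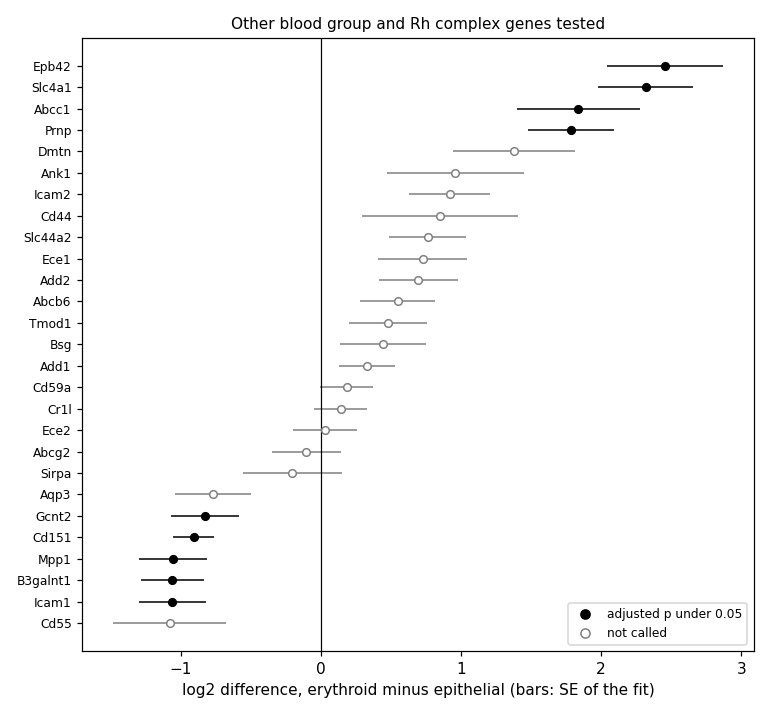
Log2 difference, erythroid minus epithelial, with the SE of the fit, for the 27 tested genes of the list of other blood group carriers, Rh complex partners and their relatives or ligands. Filled points have an adjusted p under 0.05. Epb42 and Slc4a1 lie highest at 2.46 and 2.32, and the 5 genes called lower lie between -1.06 and -0.83.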

How the data were processed

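The authors deposited 1 intensity (MAS5 signal, linear scale) per probe set and array of an Affymetrix mouse design; GCOS, MAS5 and affy are named in the submitters' processing notes, with versions not given in the sources used here. The mean after trimming 2% at each end was 500.0 on all 8 arrays. RNA (10 to 39 ng) was amplified in 2 cycles from an oligo(dT) primer, per the labels' protocols, which favours 3' ends.

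After 64 controls were set aside, an offset of 8.14 (the 10th percentile) was added and log2 taken. Array medians spanned 0.59, above the limit of 0.5, so arrays were quantile normalised. Probe sets at the array median on 4 or more arrays were tested with limma 3.58.1 in R 4.3.3 (lmFit, eBayes with a variance trend), with pair as a block, two-sided, Benjamini-Hochberg over all 11449, threshold 0.05; the procedure was checked on simulated data. Pairing comes from the labels' protocols; deviations within pairs 1 to 4 correlated at 0.437, 0.343, 0.315 and 0.535, captures of different pairs within pairs 1 and 2 or within pairs 3 and 4 at 0.280 to 0.353, and those across these sets at -0.452 to -0.288, so the values part the sets more than the single pairs. The 4 arrays per group limit precision.

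Symbols come from the platform annotation, updated by gene identifier for 20364 of 20380 probe sets. The members and lists were chosen with earlier results of these data known. The text names all members, the called genes of the other list with Ank1, and the closest profiles; relatives and ligands (Rhbg, Rhcg, Icam2, Icam5, Ece1, Sirpa) were singled out after their values were seen.

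Alternatives were the offset, scaling, filter, pair block, variance trend, each pair left out, and the mean of a gene's probe sets.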

Additional observations from a re-analysis of the deposited data

Results flagged for a closer look

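The difference of Rhag between the cell types was larger in pairs 3 and 4 than in pairs 1 and 2 by 2.17 on the log2 scale (limma interaction, adjusted p = 0.0153), and it was higher in the erythroid capture in 4 of 4 pairs.

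For Rhd, 1 epithelial sample stood apart from the other 3 after normalisation. That of pair 4 was at 7.38 on the log2 scale and the others at 7.02 to 7.08, a gap of 0.845 of the group's range, above Dixon's 95% critical value for 4 samples. It was 1 of 22 groups examined, and chance alone marks about 1 in 20.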

How the results depend on the processing

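Across the alternatives over all or 3 of the pairs, 9 member probe sets called higher kept their direction, and 0 were called lower in any of them. Without the pair block (no replicate block), 4 member probe sets and 4 member genes were higher, 445 probe sets were called in all and 2 genes of the other list were lower. Without a variance trend, 4 member genes were higher, 518 probe sets were called, the other list had 2 higher and 1 lower, and 0 members passed the interaction test. With a pair left out, 4 to 9 member probe sets and 2 to 7 member genes were higher, 517 to 1506 probe sets were called (773 without pair 3, 517 without pair 4, against 1590), 3 to 5 genes of the other list were higher and 2 to 5 lower, and 0 to 4 members passed the interaction test, with 1 set a single pair. Arrays centred on their medians gave 455 higher and 1097 lower calls, 29.3% higher against 44.6%, with a median difference over all probe sets of -0.11 in place of 0.02; the 9 member probe sets stayed called. Cd47 on 1428187_at was at -0.013 when pairs 1 and 2 were fitted alone. With the mean of a gene's probe sets, Rhd was at an adjusted p of 0.0509. The causes were not tested. Dim signal limits Kel, Xk and 2 probe sets of Cd47.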
